A study of Mus musculus with 48 samples.

Results

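The genes described here encode collagen and laminin chains, and were taken by symbol from the annotation of the array, as every probe whose single gene symbol is that of a numbered collagen or laminin chain and that has a value on all 48 arrays. Of 107 such probes of 54 genes in the annotation, 40 probes of 30 genes have a value on every array, out of 12947 genes tested in all. Of the 40 probes, 39 were treated as measured, since 1 of 2 Col2a1 probes holds on many arrays a log ratio that 203 to 335 unrelated probes of the same array share exactly. The 30 measured genes are 8 fibrillar collagens, 12 genes of the basement membrane (4 type IV collagen chains, 7 laminin chains and Col18a1) and 10 other collagens. The remaining 24 genes of the annotation, among them Col5a1, Col6a1, Col6a3, Col4a2, Lamb1 and Lamb2, have no probe with a value on all arrays.

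The tissue is the jejunal epithelium of female C57BL/6 mice given the dioxin TCDD by gavage in sesame oil, or the oil alone as vehicle, over 28 days. The 8 dose groups received 0.01 µg/kg, 0.03 µg/kg, 0.1 µg/kg, 0.3 µg/kg, 1 µg/kg, 3 µg/kg, 10 µg/kg and 30 µg/kg. The labels give an interval of 4 days between doses, although one of them also calls the gavage daily. Ages are not given in the sources used here. Each of 24 treated animals, 3 per dose, was hybridised against 1 of only 3 vehicle animals on 2 arrays with the dyes exchanged, and the mean of the 2 arrays is the value of an animal pair. Pair 1 at every dose shares the first vehicle animal, pair 2 the second and pair 3 the third, so that the spread between pairs at different doses is not independent. All values below are log2 ratios of TCDD over vehicle, with each array centred on its median. The base of the logarithm and the sign are not stated with the deposited values. The direction is a likely one, since Cyp1a1, the textbook target of dioxins, lay above 0 on 12 of 12 arrays at 10 and 30 µg/kg in both dye orientations.

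Fibrillar collagens such as types I and III are secreted as triple helices that assemble into the fibres of the lamina propria and are made mainly by fibroblasts. The basement membrane under the intestinal epithelium is a sheet of laminin trimers and a type IV collagen network, to which epithelial cells attach through integrins, and epithelial and mesenchymal cells both contribute its chains. TCDD acts through the aryl hydrocarbon receptor (AHR), which binds with its partner ARNT to DNA elements whose core is GCGTG.

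The promoter windows of 4 of these genes are shown because the results turn on them: Lamb3 had the highest mean log2 ratio at 30 µg/kg, Lama5 the lowest, Col6a4 shared with Lamb3 the smallest adjusted p-value of these genes at this dose, and Col3a1 moved with Col1a1 across animals. They were chosen after the values were seen. Each runs from 250 bases before to 50 after the start site in RefSeq's GRCm38.p6 annotation, written 5′ to 3′ along the gene's strand, with GCGTG or its reverse complement CACGC in capitals. The Lamb3 window lies at chr1:193301744-193302043 on the plus strand, that of Lama5 at chr2:180225810-180226109 on the minus strand, that of Col6a4 at chr9:106096642-106096941 on the minus strand and that of Col3a1 at chr1:45311288-45311587 on the plus strand.
Lamb3: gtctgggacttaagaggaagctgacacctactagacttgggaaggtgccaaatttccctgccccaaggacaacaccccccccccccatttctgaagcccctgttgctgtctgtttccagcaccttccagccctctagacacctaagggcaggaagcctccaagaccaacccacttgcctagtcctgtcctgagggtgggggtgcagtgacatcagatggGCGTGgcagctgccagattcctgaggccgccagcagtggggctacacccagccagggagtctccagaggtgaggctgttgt
Lama5: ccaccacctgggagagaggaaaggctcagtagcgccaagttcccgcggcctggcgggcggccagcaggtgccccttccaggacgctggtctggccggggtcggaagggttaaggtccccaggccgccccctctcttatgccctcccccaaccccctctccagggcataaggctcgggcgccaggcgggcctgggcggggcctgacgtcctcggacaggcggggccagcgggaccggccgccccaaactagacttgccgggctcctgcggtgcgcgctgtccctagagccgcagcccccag
Col6a4: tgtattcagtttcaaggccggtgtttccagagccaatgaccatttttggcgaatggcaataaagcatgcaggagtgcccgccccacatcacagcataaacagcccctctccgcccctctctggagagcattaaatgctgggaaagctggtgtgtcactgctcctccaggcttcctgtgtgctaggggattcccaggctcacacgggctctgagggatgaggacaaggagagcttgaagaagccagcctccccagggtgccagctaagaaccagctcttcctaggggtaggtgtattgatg
Col3a1: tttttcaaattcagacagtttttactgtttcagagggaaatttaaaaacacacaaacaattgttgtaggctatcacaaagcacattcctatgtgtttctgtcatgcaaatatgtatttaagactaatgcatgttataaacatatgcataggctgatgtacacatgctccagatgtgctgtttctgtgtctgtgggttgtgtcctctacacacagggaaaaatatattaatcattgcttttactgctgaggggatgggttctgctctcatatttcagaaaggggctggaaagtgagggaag
The Lamb3 window holds 1 match and those of Lama5, Col6a4 and Col3a1 hold 0. A second annotated start of Lamb3 has a window with 0 matches, which overlaps the first. Over 25 windows of 22 measured collagen and laminin genes, 6 (24%) hold the motif on either strand, against 32.4% of the 32851 windows of all genes. A match in a window is a description of the letters and says nothing of binding.

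The precision of the ratios differed between probes. The ratios of the 2 dye-swapped arrays of a pair, followed over the 24 pairs, had a median correlation of 0.22 for the 39 collagen and laminin probes and of 0.29 for all 17621 probes tested. The correlation was over 0.5 for 14 of the 39 probes (35.9%) and for 30.5% of all probes. It was 0.98 for the Col1a1 probe A_52_P525107 and over 0.7 for probes of Col2a1, Lama3, Col7a1, Lama5, Lamb3, Col1a2, Col18a1 and Col3a1. It was below 0 for 14 of the 39 probes, among them all probes of Col6a2, Col9a2, Col4a1, Lamc1 and Col11a2. The plot of agreement between dye-swapped arrays shows this for each probe. The files give no intensities, so that a dim spot cannot be told from a bright one, and levels of different genes cannot be compared.

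**Figure D1:**
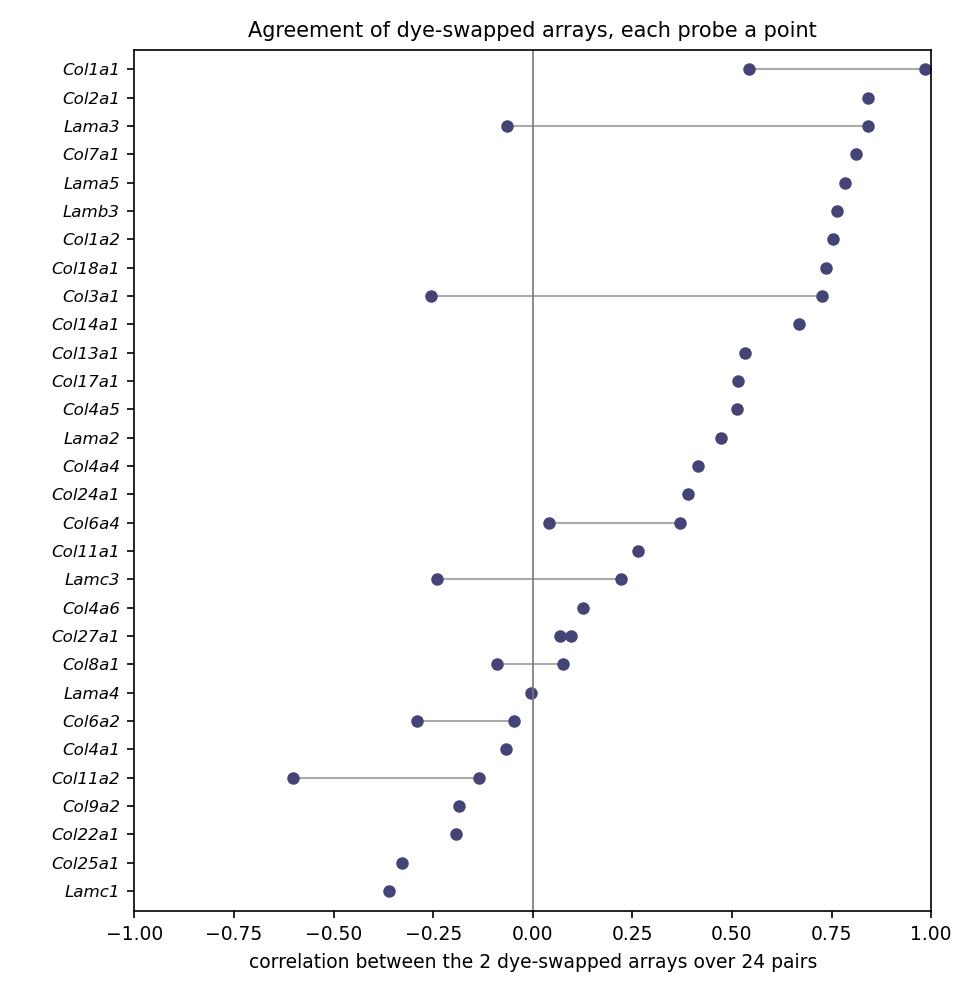
Correlation over 24 animal pairs between the log2 ratios of the 2 dye-swapped arrays (x axis), for each measured probe (points) of each collagen or laminin gene (rows; a grey line joins probes of 1 gene). Genes at the top, led by Col1a1 with 0.98, gave the same ordering of animals in both dye orientations, while the 2 probes of Col3a1 and of Lama3 lie far apart.

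At 30 µg/kg no collagen or laminin gene passed the test. The limma fit of all 24 pairs, with the mean of each dose tested against 0 and Benjamini-Hochberg adjustment over 12947 genes, called 0 of the 30 genes at an adjusted p under 0.05, where 2.14% of all genes were called. With the vehicle animal as a block, which raised the calls over all genes to 697 from 277, 0 of the 30 were called as well. At an unadjusted p under 0.05 there were 10 of the 30, set against 16.2% of all genes. Of these 10, Col4a4 and Lamb3 were above 0, where 7.86% of all genes met this limit, and Col1a1, Col2a1, Col6a4, Col8a1, Col9a2, Col14a1, Lama5 and Lamc1 were below 0, where 8.35% did. In the 10 µg/kg group 0 of 30 genes were called (0.216% of all genes), and 4 met the unadjusted limit (7.26% of all genes), namely Col14a1, Col27a1, Lama3 and Lamb3, all above 0, where 3.79% of all genes did. Nor was any of the 30 called at the 6 lower doses, where the share of all genes called was 0.139% at 0.3 µg/kg, 0.0232% at 0.1 µg/kg and 0.00% at 0.01, 0.03, 1 and 3 µg/kg. The unadjusted limit was met by 0 of the 30 at 0.01 µg/kg (2.06% of all genes), by 1 at 0.03 µg/kg (2.84%), 1 at 0.1 µg/kg (3.46%), 4 at 0.3 µg/kg (9.89%), 2 at 1 µg/kg (5.34%) and 1 at 3 µg/kg (3.12%).

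**Figure D2:**
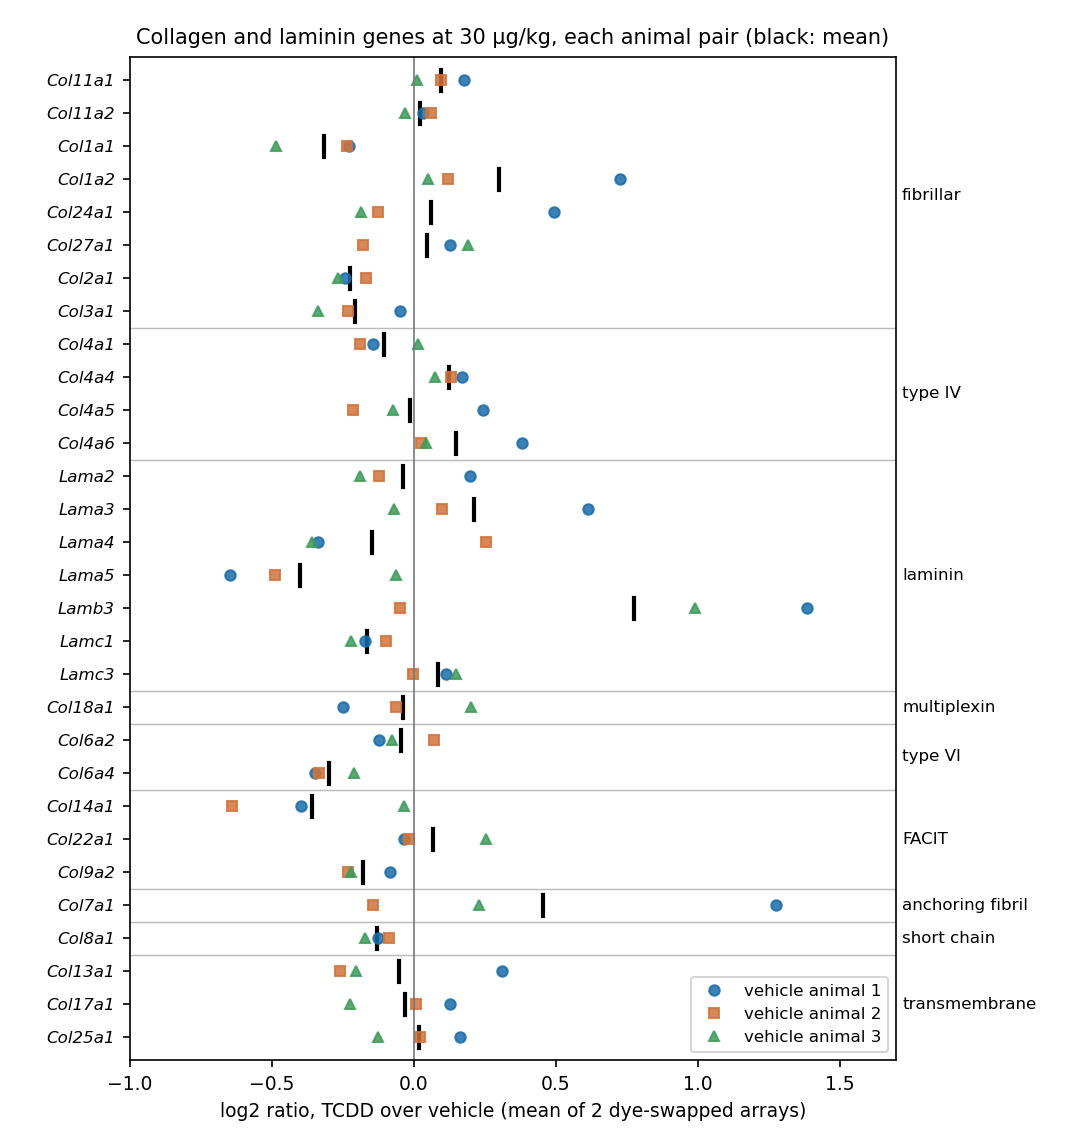
Log2 ratio of TCDD over vehicle at 30 µg/kg (x axis) in each of the 3 animal pairs, by the vehicle animal they share with the other doses (symbols), for the 30 measured genes grouped by class. Black bars are means of 3 pairs. Most pairs lie within 0.5 of 0, and pair 1 is high for Lamb3 and Col7a1, as is pair 3 for Lamb3.

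Among the fibrillar collagens, Col1a1 and Col1a2, the 2 chains of type I collagen, did not give like values. Col1a1 had log2 ratios of -0.23, -0.23 and -0.49 at 30 µg/kg (mean -0.32 ± 0.15, SD, n = 3; 95% interval from -0.62 to -0.01; adjusted p 0.287). Its 2 probes differed. Probe A_52_P525107 was at -0.54, -0.45 and -0.40 (mean -0.47, adjusted p 0.340 as a probe alone) and probe A_52_P658611 at 0.09, -0.01 and -0.57. All 3 pairs were low on the first probe, and only pair 3 was low on the second. Col1a2 had 0.73, 0.12 and 0.05 at 30 µg/kg (mean 0.30 ± 0.37; adjusted p 0.347), with pair 1 high. Pair 1 was also high for Col1a2 among the animals given 1 µg/kg (0.94, 0.24 and -0.04), as it was in the 10 µg/kg group (0.73, 0.11 and -0.06). The 8 pairs that share vehicle animal 1 averaged 0.38 ± 0.38 for Col1a2, against 0.11 ± 0.16 with animal 2 and 0.05 ± 0.12 with animal 3 (SD, n = 8 pairs each).

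Col3a1, the chain of type III collagen, which accompanies type I in the gut wall, was at -0.05, -0.23 and -0.34 at 30 µg/kg (mean -0.21 ± 0.14; adjusted p 0.476), and its probes also differed. Probe A_51_P515605 had -0.04, -0.54 and -0.57, and probe A_52_P684242 had -0.06, 0.07 and -0.10. Col2a1, known as the collagen of cartilage, had -0.24, -0.17 and -0.26 (mean -0.22 ± 0.05; 95% interval from -0.41 to -0.04; adjusted p 0.213). Its 3 pairs at 30 µg/kg were low and close together, whereas at 10 µg/kg it was at 0.07, 0.05 and 0.08. A further Col2a1 probe, A_52_P564148, has values on all arrays of these doses but not on all 48, and it differed. It was at -0.11, 0.02 and 0.20 at 30 µg/kg and at -0.05, 0.41 and -0.03 at 10 µg/kg. The means of Col11a1, Col11a2, Col24a1 and Col27a1, the minor fibrillar chains, lay between 0.02 and 0.10 at 30 µg/kg.

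Of the type IV chains, which form the network of the basement membrane, Col4a4 was at 0.17, 0.13 and 0.08 at 30 µg/kg (mean 0.13 ± 0.05; adjusted p 0.193), above 0 in all 3 pairs but small. At 0.3 µg/kg it was at -0.07, -0.03 and -0.29. A further Col4a4 probe, A_52_P424594, has values on all arrays at 30 µg/kg but not on all 48. It was at 0.10, -0.36 and 0.24 at 30 µg/kg, so that the rise in all 3 pairs rests on 1 probe. Col4a6 was at 0.38, 0.03 and 0.04 (mean 0.15 ± 0.20; adjusted p 0.329), with pair 1 apart from the others. Col4a1, a chain of the main network of most basement membranes, averaged -0.11 ± 0.11, and Col4a5 averaged -0.01 ± 0.23.

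The laminins held the highest and the lowest mean of the 30 genes at 30 µg/kg. Lamb3, the beta chain of laminin-332, which anchors epithelial cells through hemidesmosomes, was at 1.39, -0.05 and 0.99 (mean 0.78 ± 0.74; 95% interval from 0.30 to 1.26; adjusted p 0.0849). Pairs 1 and 3 were high and pair 2 was near 0. At 10 µg/kg Lamb3 was at 1.02, 0.15 and 0.39 (mean 0.52 ± 0.45; adjusted p 0.643), so that pair 1 was again the highest. Pair 1 was between -0.20 and 0.07 at all 6 lower doses, while pairs 2 and 3 reached 0.65 and 0.81 there. Whether Lamb3 was called depended on the dye orientation and on pair 2. Without that pair at 30 µg/kg its mean was 1.19 (adjusted p 0.0166), without pair 1 it was 0.47 (0.450) and without pair 3 it was 0.67 (0.274). With quantile normalization between arrays the mean was 0.55 (adjusted p 0.319). By dye it was 0.47 on the arrays with the TCDD sample in Cy5 (adjusted p 0.210) and 1.08 with it in Cy3 (0.00870).

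Genes of exocrine pancreas moved in the same 2 pairs. The median log2 ratio of 13 pancreas genes with values, of 16 listed, was 3.00, -0.00 and 0.79 in pairs 1, 2 and 3 at 30 µg/kg, in the order in which Lamb3 had 1.39, -0.05 and 0.99. The pancreas signal also appeared in pair 1 at 1 µg/kg (2.02), where Lamb3 was at -0.15, in pair 2 at 0.03 µg/kg (2.51), where Lamb3 was at 0.25, in pair 2 at 0.1 µg/kg (1.5), where it was at 0.65, and in pair 3 at 0.3 µg/kg (1.02), where it was at 0.70. At 10 µg/kg the pancreas medians were 0.07, 0.05 and 0.04. In pair 3 at 3 µg/kg, where Lamb3 was at 0.81, the pancreas median was -0.03. The part of pancreas RNA in the Lamb3 values was not tested.

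Lama3, the alpha chain of laminin-332, was at 0.61, 0.10 and -0.07 at 30 µg/kg (mean 0.21 ± 0.36; adjusted p 0.386) and at 0.46, 0.22 and 0.18 at 10 µg/kg (mean 0.29 ± 0.15; adjusted p 0.602). At 30 µg/kg its probe A_51_P167489 gave 1.04, 0.25 and -0.14, and its probe A_52_P141739 gave 0.19, -0.06 and 0.00. On the first probe the 8 pairs with vehicle animal 1 averaged 0.58 ± 0.29 over all doses, against 0.13 ± 0.37 with animal 2 and 0.06 ± 0.17 with animal 3. The gamma chain of laminin-332 was not analysed here.

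Lama5, the alpha chain of the laminins that underlie mature intestinal epithelium, had the lowest mean at 30 µg/kg, with -0.65, -0.49 and -0.06 (mean -0.40 ± 0.30; 95% interval from -0.72 to -0.07; adjusted p 0.200). Pairs 1 and 2 were low. At 10 µg/kg it was at 0.51, -0.20 and 0.53, and at 0.1 µg/kg at 0.27, 0.40 and 0.28. Lamc1, the gamma chain shared by most laminins, was at -0.17, -0.10 and -0.22 at 30 µg/kg (mean -0.16 ± 0.06; adjusted p 0.214), but its dye-swapped arrays had a correlation of -0.36. Lama2, Lama4 and Lamc3 had means from -0.15 to 0.09.

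Among the other collagens, Col7a1, which forms the anchoring fibrils that tie a basement membrane to the stroma, was at 1.28, -0.14 and 0.23 at 30 µg/kg (mean 0.46 ± 0.74; adjusted p 0.364). Pair 1 alone was high. At 1 µg/kg pair 1 was also alone, with 1.60 against 0.12 and 0.18 in pairs 2 and 3. These 2 pairs are those with pancreas medians of 3.00 and 2.02, and Col7a1 was 0.79 in pair 1 at 10 µg/kg, where that median was 0.07. Whether the pancreas signal had a part in these values was not tested.

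Col6a4, a chain of the microfibrillar type VI collagen, was at -0.35, -0.33 and -0.21 at 30 µg/kg (mean -0.30 ± 0.08; 95% interval from -0.48 to -0.11; adjusted p 0.0849). All 3 pairs were low. Its 2 probes had means of -0.50 (adjusted p 0.0817 as a probe alone) and -0.09 (0.544), so that the size rests on the first. Without array centring its mean was -0.35 (adjusted p 0.0256). Col6a2, the other type VI chain, was at -0.12, 0.07 and -0.08. Col9a2, of the collagens that attach to fibril surfaces, was at -0.08, -0.23 and -0.22 (mean -0.18 ± 0.08; adjusted p 0.118), with a correlation between dye-swapped arrays of -0.18. Col8a1, a short-chain collagen, was at -0.13, -0.09 and -0.17 (mean -0.13 ± 0.04; adjusted p 0.220).

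Col14a1, which binds the surface of type I fibrils, was at -0.40, -0.64 and -0.03 at 30 µg/kg (mean -0.36 ± 0.31; adjusted p 0.302) and at 0.59, 0.25 and 0.46 at 10 µg/kg (mean 0.43 ± 0.17; adjusted p 0.581). Its values at the 2 doses did not overlap, and nor did those of Col1a1, Col2a1, Col3a1, Col4a4 and Col6a4. The share of all genes without such overlap was not counted, so whether the list is longer than usual cannot be told. The limma contrast of 30 minus 10 µg/kg called none of these genes, and the smallest adjusted p among them was 0.798, for Col14a1. The 5 transmembrane, FACIT and multiplexin chains not yet named, Col13a1, Col17a1, Col25a1, Col22a1 and Col18a1, had means from -0.05 to 0.07 at 30 µg/kg.

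**Figure D3:**
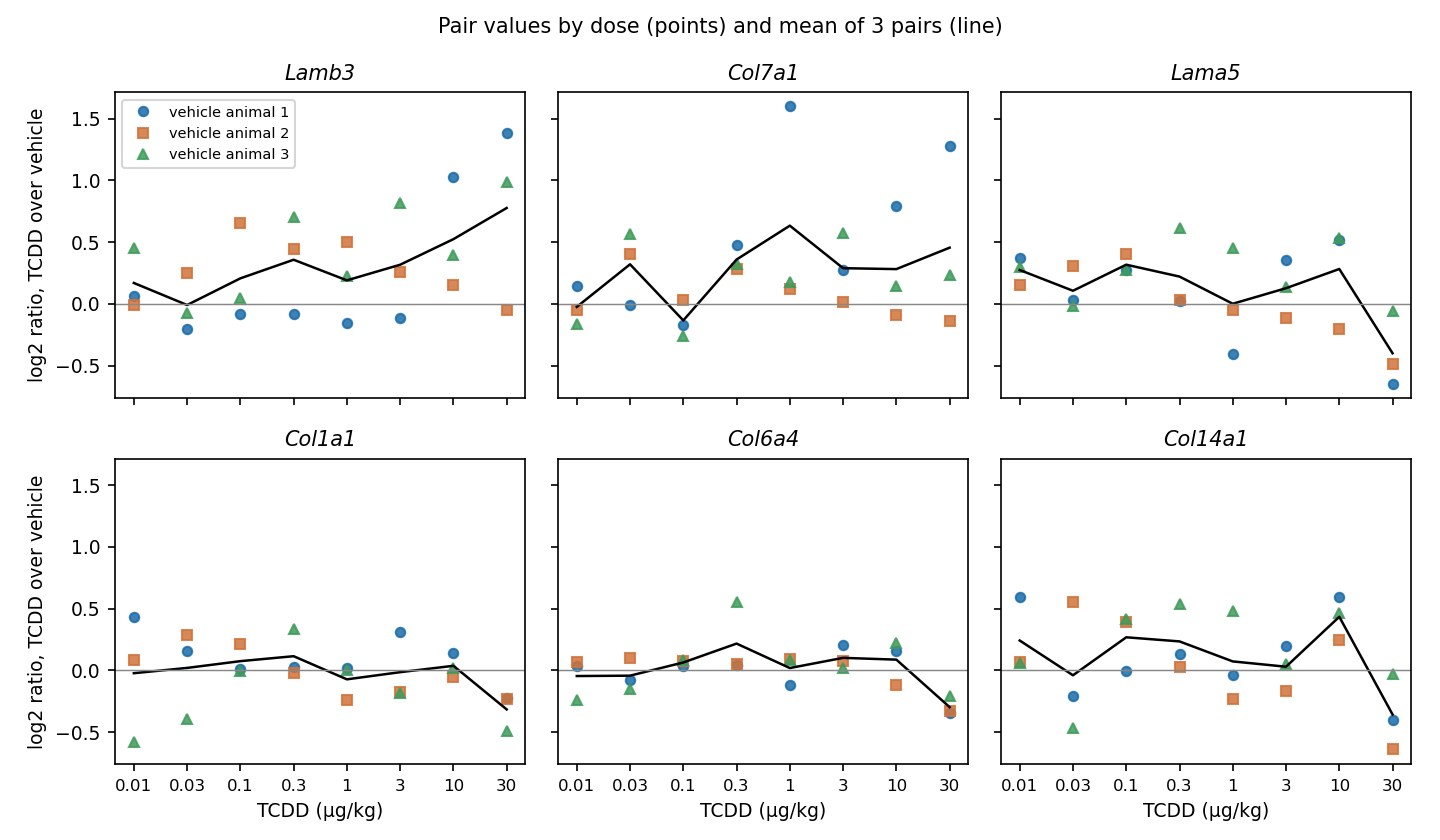
Log2 ratio of TCDD over vehicle (y axis) against dose in µg/kg (x axis, equally spaced) for 6 genes, with each animal pair as a point and the mean of 3 pairs as a line. Lamb3 has its highest means at 10 and 30 µg/kg, with pair 2 near 0, and Lama5, Col1a1, Col6a4 and Col14a1 have their lowest means at 30 µg/kg.

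A slope on dose and 2 contrasts asked whether the ratios moved with dose. The slope of the log2 ratio on log10 dose called 0 of the 30 genes, where 0.633% of all genes were called. At the unadjusted limit there were 3 of 30 (12.6% of all genes): Lamb3 with 0.17 per 10-fold dose (SE 0.07; adjusted p 0.263), Col11a1 with 0.06 (SE 0.02; 0.211) and Lama5 with -0.11 (SE 0.05; 0.382). The mean of 10 and 30 µg/kg minus the mean of 0.01, 0.03 and 0.1 µg/kg, in which each vehicle animal counts equally on both sides, also called 0 of 30 (0.633% of all genes). The 3 genes at the unadjusted limit (10.3% of all genes) were Lamb3, Col11a1 and Lamc3. Lamb3 averaged 0.65 at the high doses and 0.12 at the low doses, a difference of 0.53 (SE 0.21; 95% interval from 0.09 to 0.97; adjusted p 0.374).

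The means at 30 µg/kg lay below those at 10 µg/kg for several genes. The contrast of 30 minus 10 µg/kg called 0 of 30 (0.0309% of all genes), and 5 met the unadjusted limit (4.32% of all genes), all lower at 30 µg/kg, where 2.39% of all genes were lower at this limit. They were Col14a1 (difference -0.79, SE 0.24; adjusted p 0.798), Lama5 (-0.68, SE 0.22; 0.806), Col6a4 (-0.38, SE 0.12; 0.806), Col2a1 (-0.29, SE 0.13; 1.00) and Lamc1 (-0.25, SE 0.09; 1.00). These tests share the 3 vehicle animals, and a p that misses the threshold does not show that the doses act alike.

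As classes, the fibrillar and the basement membrane genes had medians near 0. At 30 µg/kg the median over the 8 fibrillar genes was 0.03, with pair medians of 0.08, -0.15 and -0.11 and 5 genes above 0. The median over the 12 basement membrane genes was -0.02, with pair medians of 0.14, -0.05 and -0.02 and 5 genes above 0. Over all 12947 genes the median was 0.00, with 6490 above 0. In the 10 µg/kg group, 8 of 8 fibrillar genes had a mean above 0 (median 0.10) and 9 of 12 basement membrane genes did (median 0.08). In that group the pair medians were 0.24, 0.06 and -0.02 for the fibrillar genes and 0.18, 0.04 and 0.08 for the basement membrane genes, and pair 1 was the highest in both classes. Of all genes, 48.8% had a mean above 0 in that group. Means above 0 were also seen for 7 of 8 fibrillar genes in the 0.3 µg/kg group, for 7 of 8 with 1 µg/kg, and for 10 of 12 basement membrane genes in the group given 0.3 µg/kg. Over all genes the share was 51.7% with 0.3 µg/kg and 50.4% with 1 µg/kg. With 0.01 and with 0.03 µg/kg, 4 of 8 fibrillar genes were above 0. Of the 12 basement membrane genes, 8 were above 0 with 0.01 µg/kg and 5 with 0.03 µg/kg. The spread of the pair medians differed between doses. Those of the fibrillar genes were 0.23, 0.01 and -0.12 with 0.01 µg/kg. With 0.1 µg/kg they were 0.04, 0.04 and -0.01, while the class medians at the 8 doses ran from 0.01 to 0.10.

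**Figure D4:**
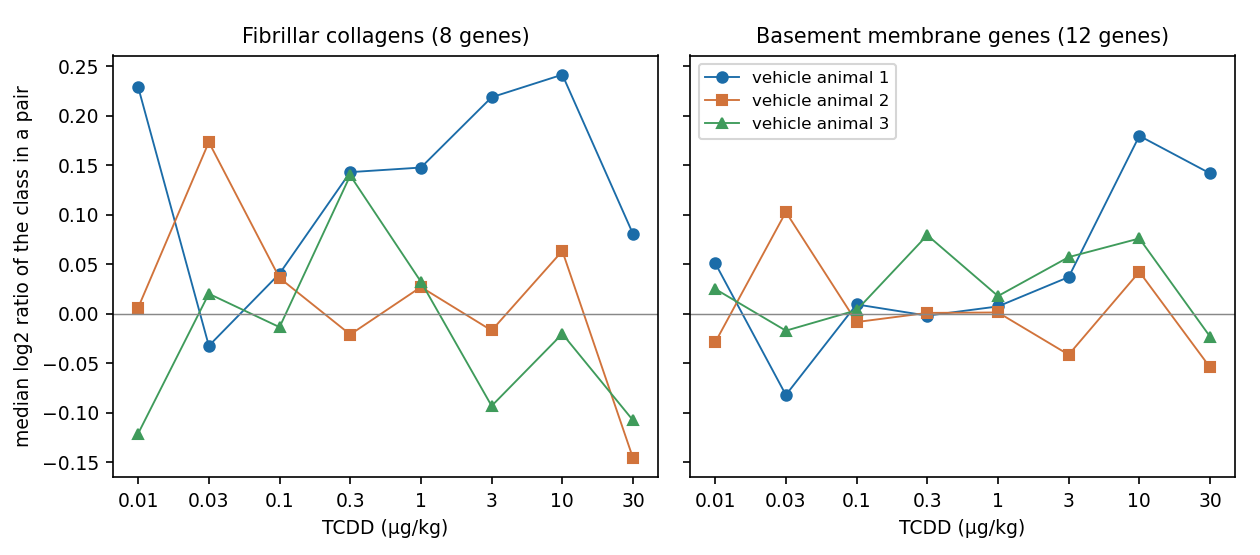
Median log2 ratio of TCDD over vehicle of the fibrillar collagens (left) and the basement membrane genes (right) in each animal pair (y axis) by dose in µg/kg (x axis, equally spaced), with lines joining pairs that share a vehicle animal. At 30 µg/kg the fibrillar medians are 0.08, -0.15 and -0.11.

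Across animals, Col1a1 on probe A_52_P525107 varied widely and in step with a set of other matrix genes. On that probe, the log2 ratio ran from -0.83 (pair 3 at 0.01 µg/kg) to 0.82 (pair 1 at 0.01 µg/kg), so that its extremes were reached at the lowest dose. The 3 pairs at 30 µg/kg all lay in the lower part of this range. Of 35 relations computed over the 24 pairs with this probe, 29 with 1 probe of each other gene and 6 with the medians of marker lists, the closest was with the median of 5 fibroblast markers other than Col1a1 (Pearson's r 0.92, Spearman's rho 0.93). For each gene, Col1a1 included, the probe used was the one with the highest correlation between its dye-swapped arrays. Further probes of the same genes were not followed in these relations. All 24 pairs entered with dose means kept, so a shift that genes share at a dose can add to r and rho. P-values came from a permutation test with 100000 resamples within each vehicle animal, two-sided, and were 1e-05 for both r and rho, the smallest they can give (adjusted p 0.000117 and 8.75e-05).

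Of the genes, Col2a1 (r 0.89, rho 0.87) and Col3a1 (r 0.88, rho 0.82) followed Col1a1 most closely, each with a permutation p of 1e-05 for r and for rho and adjusted p of 0.000117 and 8.75e-05. Col14a1 (r 0.78, rho 0.79; adjusted permutation p 0.000175 and 0.00021), Col6a4 (r 0.76, rho 0.82; 0.000467 and 8.75e-05) and Col18a1 (r 0.74, rho 0.72; 0.00021 and 0.000642) came next. Lama5 had r 0.59 and rho 0.68 (adjusted permutation p 0.0132 and 0.00162), and Lamc1 had r 0.55 and rho 0.57 (0.0245 and 0.0196). These relations held without the 2 pairs farthest from the median of Col1a1, with r from 0.68 for Lamc1 and for Col18a1 to 0.86 for Col2a1. Within the 8 pairs of each vehicle animal, r with Col3a1 was 0.94, 0.89 and 0.92, and r with the fibroblast markers 0.93, 0.89 and 0.95. Col1a2, whose protein chain pairs with that of Col1a1, had r -0.03 (rho -0.04; adjusted permutation p 0.937 and 0.952), and Lamb3 had r -0.13 (rho -0.07).

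The fibroblast markers were also low at 30 µg/kg, beside the low ratios of Col1a1, Col3a1, Col14a1, Col6a4 and Lama5. The median of the 5 markers with values was -0.62, -0.46 and -0.19 in the 3 pairs, within a range of -0.62 to 0.53 over the 24 pairs. Of the listed fibroblast markers, Thy1 was called at 30 µg/kg (-0.62, -0.46 and -0.75; mean -0.61 ± 0.15; adjusted p 0.00359), in each dye orientation alone as well (-0.64 and -0.58). The call ended in 6 of 19 alternatives. The adjusted p was 0.0503 without pair 3 at this dose, 0.386 with pair 2 alone, 0.100 without all pairs of vehicle animal 1 and 0.0730 without those of animal 3. It was 0.230 with that dose fitted alone and 0.209 in the same fit over all probes complete on its arrays. The median of 9 smooth muscle markers was above 0 in the 3 pairs at 30 µg/kg (0.12, 0.17 and 0.08). Of the 9, 5 were at the unadjusted limit, all above 0, where 7.86% of all genes were. The 4 leukocyte markers had a median below 0 (-0.13, -0.30 and -0.03). Of these, 2 were at that limit, both below 0, where 8.35% of all genes were. Also at that limit, all below 0, were 3 of 6 endothelial markers and, with Col1a1 counted, 4 of 6 fibroblast markers. At that limit were also 3 of 7 epithelial markers, all above 0. Over whole lists the means at 30 µg/kg went both ways. They were above 0 for 4 epithelial markers and below for 3, and for smooth muscle above for 7 and below for 2. For leukocytes 1 was above and 3 below, and for endothelium 1 above and 5 below. All 6 fibroblast markers were below 0. The median of 6 endothelial markers at 30 µg/kg was -0.35, -0.22 and -0.25, and over the 24 pairs it had r 0.65 with Col1a1 (rho 0.65; adjusted permutation p 0.0011 and 0.00075). The leukocyte median had r 0.51 (rho 0.50; adjusted permutation p 0.00875 and 0.00894). Those of the smooth muscle markers (r 0.17, rho 0.12), 7 epithelial markers (r 0.18, rho -0.01) and 13 pancreas genes (r 0.12, rho 0.06) did not pass (adjusted permutation p from 0.732 to 0.781 for r). In such samples fewer fibroblasts and less collagen RNA per fibroblast cannot be told apart. Which cells gave the Thy1 RNA was not determined, so its call is not specific to fibroblasts. The epithelial marker median was 0.14, 0.18 and 0.13 in the 3 pairs at 30 µg/kg.

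**Figure D5:**
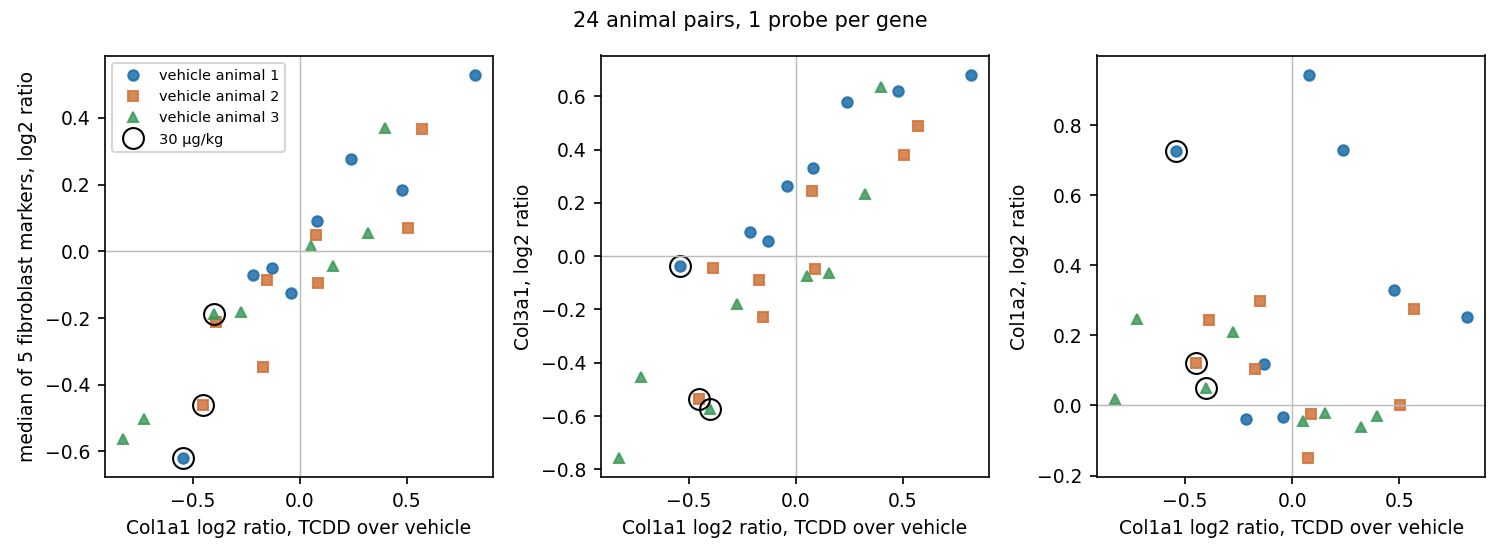
Log2 ratios of TCDD over vehicle in 24 animal pairs, with Col1a1 (probe A_52_P525107) on the x axis and, from left to right, the median of 5 fibroblast markers, Col3a1 and Col1a2 on the y axis. Symbols give the vehicle animal and open circles the 3 pairs at 30 µg/kg. The first 2 panels rise together (r 0.92 and 0.88) and the third does not (r -0.03).

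The genes that make, cut and bind collagens and laminins were followed as lists. Of 12 measured genes for collagen folding, processing and crosslinking, limma called 0 at 30 µg/kg and 2 met the unadjusted limit, 1 in each direction, where 16.2% of all genes met it (list median 0.04, against 0.00 over all genes). Adamts14, a procollagen peptidase, had the smallest p (0.27, 0.15 and 0.00; adjusted p 0.187). Serpinh1, the collagen chaperone of the endoplasmic reticulum, had the lowest mean, with -0.79, -1.0 and -0.48 (mean -0.76 ± 0.26; adjusted p 0.237), low in all 3 pairs. Of 8 measured genes for collagen breakdown 0 were called and 0 met the unadjusted limit (median 0.02), and Mmp10 had the smallest p (mean -0.13; adjusted p 0.675). Of 11 TGF-beta pathway genes, which control collagen synthesis in fibroblasts, 0 were called and 0 met the unadjusted limit (median 0.03), and the smallest p was that of Smad4 (mean -0.16; adjusted p 0.329).

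Of 11 measured receptors for collagens and laminins (median 0.01), only Dag1 was called at 30 µg/kg, below 0, and 3 met the unadjusted limit, where 2.14% and 16.2% of all genes did so. Dag1 encodes dystroglycan, which binds laminins at the cell surface. It was at -0.29, -0.27 and -0.11 at 30 µg/kg (mean -0.22 ± 0.10; adjusted p 0.0292), and was also called at 0.1 µg/kg (-0.44, -0.39 and -0.28; adjusted p 0.00668) and 0.3 µg/kg (-0.44, -0.40 and -0.37; mean -0.40 ± 0.03; adjusted p 0.00133). With 10 µg/kg it was at -0.05, -0.17 and 0.04 (adjusted p 0.816), so that its values did not follow the dose. Its direction at 30 µg/kg turned with the dye: the mean was -0.58 on the arrays with the TCDD sample in Cy5 and 0.13 with it in Cy3 (adjusted p 0.291). At 0.3 µg/kg these means were -0.70 and -0.10, at 0.1 µg/kg -0.54 and -0.20, and the calls at all 3 doses ended when the spread was estimated with trend and robust settings (adjusted p 0.196 at 30, 0.165 at 0.3 and 1.00 at 0.1 µg/kg). In all, 7 of 14 alternatives ended the call for 0.1 µg/kg, 7 of 14 that for 0.3 µg/kg and 11 of 19 that for 30 µg/kg, where 1 more turned the sign. Itgb4, the integrin chain of hemidesmosomes that binds laminin-332, was at 0.51, 0.31 and 0.06 at 30 µg/kg (mean 0.30 ± 0.23; adjusted p 0.0952) and at 0.31, 0.28 and 0.12 at 10 µg/kg (mean 0.24 ± 0.10; adjusted p 0.580). Of 7 measured partners in the basement membrane 0 were called at 30 µg/kg and 2 met the unadjusted limit, both above 0, where 7.86% of all genes were (list median -0.04), and Hspg2, the proteoglycan perlecan, had the smallest p (0.40, 0.23 and 0.33; mean 0.32 ± 0.09; adjusted p 0.130). Fbln1, the matrix protein fibulin-1, was called at 0.3 µg/kg (0.28, 0.32 and 0.42; adjusted p 0.0234), by 1 of its 2 probes (0.57, adjusted p 0.000885, against 0.10 on the other, 0.626), with -0.03 ± 0.09 at 30 µg/kg. The Fbln1 call ended in 7 of 14 alternatives. The adjusted p was 0.170 with quantile normalization, 0.165 with trend and robust settings, 0.112, 0.300 and 0.553 without replicates 1, 2 and 3, and 0.910 with that dose fitted alone.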

How the data were processed

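RNA of jejunal epithelium of 24 TCDD-treated and 3 vehicle mice was measured on 48 two-colour Agilent arrays labelled with Cy3 and Cy5, per the labels. The deposited values are log ratios, read here as log2 ratios of treated over vehicle. The scanner software, background correction and normalization of the authors are not given in the sources used here, and neither are intensities. Of the cells of the deposited table, 25.0% are empty. The number of arrays limits the precision.

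Each array was centred on the median of the 21105 probes with values on all 48 arrays (array medians lay between -0.09 and 0.07). The 2 dye-swapped arrays of a pair were averaged and counted as 1 replicate. Probes with 1 gene symbol were averaged per gene, after leaving out 215 probes that held a value shared by many probes of the array on 6 or more arrays, which gave 17621 probes of 12947 genes. Symbols were matched by gene identifier to RefSeq for 32416 of 32555 probes. Promoter windows are RefSeq's of GRCm38.p6. The table holds 0 columns of other samples.

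Tests used limma 3.58.1 (R 4.3.3, statmod 1.5.0), lmFit and eBayes on all 24 pairs, two-sided, with Benjamini-Hochberg adjustment over all genes and a threshold of 0.05. All doses share 1 estimate of the spread. The steps were tested on simulated data. Once dose means were subtracted, 84 combinations of pairs sharing a vehicle animal had a mean correlation of 0.28 across genes, and the 168 others had -0.14. The labels give the shared vehicle animal, so the replicate numbers pair the samples. P-values measure the spread of ratios between these animal pairs, not between independent treated and vehicle animals. The main fit had no term for the 3 shared vehicle animals.

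Members and lists were chosen with earlier results of these data known. Genes given with all values are Col1a1, any gene called, and the 2 with the smallest p at 30 µg/kg among the fibrillar, type IV, laminin, type VI, FACIT and other collagens. Of other lists they are those called at 30 µg/kg, or else the 1 with the smallest p. Other genes named with values (Col1a2, Col3a1, Lama3, Lamc1, Serpinh1, Itgb4, Fbln1 and the ranges of the rest) were chosen after their values were seen. Alternatives covered the replicate block, array centring, quantile normalization, single dye orientations, shared-value probes, single probes, the median of probes, empty cells, the estimate of the spread and leaving out replicates. Leaving out both 30 µg/kg pairs with pancreas signal was chosen after seeing the data.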

Additional observations from a re-analysis of the deposited data

Results flagged for a closer look

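Col14a1 and Col2a1 had every pair at 30 µg/kg on the other side of 0 from every pair at 10 µg/kg. For Col14a1 the difference of 30 minus 10 µg/kg was -0.79 (means -0.36 and 0.43; SE 0.24; limma adjusted p 0.798), and for Col2a1 it was -0.29 (means -0.22 and 0.06; SE 0.13; adjusted p 1.00). The difference itself was tested and did not pass in either gene. Such opposite sides were seen in 2 of 30 collagen and laminin genes (6.67%) and in 150 of 12947 genes (1.16%). A further Col2a1 probe, A_52_P564148, without values on all 48 arrays, did not show them (-0.11, 0.02 and 0.20 at 30 µg/kg). Both genes moved with Col1a1 probe A_52_P525107 across the 24 pairs (r 0.78 for Col14a1 and 0.89 for Col2a1). Those pairs include the ones at 10 and 30 µg/kg, so r is not separate from the values above. The median of 5 fibroblast markers at 30 µg/kg was -0.62, -0.46 and -0.19. The part of fibroblast content in these values was not tested.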

How the results depend on the processing

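The slope and both contrasts called 0 collagen or laminin genes under all 17 alternatives each. Elsewhere the count of 0 moved under few. At 30 µg/kg, 14 of 19 alternatives also gave 0, and no centring gave 2 (Col6a4, Col9a2), Cy5 arrays only 4 (Col4a4, Col6a4, Col14a1, Col27a1) and Cy3 arrays only 2 (Col2a1, Lamb3). Leaving out replicates gave 0 to 1 (Lamb3, without replicate 2). At 10 µg/kg Cy3 arrays alone gave 1 (Lamb3). At 0.01 to 3 µg/kg no centring gave 1 (Col4a4), Cy5 arrays 1 (Lama5) and Cy3 arrays 2 (Col6a4, Col22a1, both at 0.3 µg/kg). The replicate block, on the vehicle animal by which the samples are paired, changed no call of these genes (0 in each test). The cause of these shifts was not tested. Directions at 30 µg/kg turned for Col6a2 (0.028 in Cy5, 0.011 on 1 probe, 0.071 in pair 2 alone), for Col7a1 and Lamb3 in pair 2 alone (-0.14 and -0.048), without the 2 pairs of that dose with pancreas signal, and for Dag1 (0.13 in Cy3). The fibrillar median was -0.15 in pair 2 alone. Over all genes, 277 calls at 30 µg/kg (50.9% higher) became 697 with the block, 545 without centring (20.2% higher), 97 with quantile normalization, 1486 and 870 by single dye, 20 with probes complete at the dose, 6 with that dose fitted alone, 54 in pair 2 alone and 146, 124 and 123 without replicates 1, 2 and 3. Without intensities, what signal over background limits is unknown.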

Other observations

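Probes of further matrix genes had values on all 6 arrays of the 30 µg/kg group but not on all 48 arrays. They were tested probe by probe in a limma fit of 1 dose alone, with adjustment over the probes complete on that dose's arrays. Col6a3, a chain of type VI collagen, had a probe at -0.44, -0.64 and -0.14 (mean -0.41; adjusted p 0.529) and a second probe at -0.11, -0.10 and 0.29 (mean 0.03; adjusted p 0.973). Col5a3, a minor fibrillar chain, was at -0.02, -0.54 and -0.21 (mean -0.26; adjusted p 0.705). At 10 µg/kg Lamb1, the beta chain of most basement membrane laminins, was at 0.63, -0.02 and 0.52 (mean 0.38; adjusted p 0.996), and the first Col6a3 probe at 0.34, -0.05 and 0.34 (mean 0.21; adjusted p 0.996). In each of these genes pairs of the same dose differed by more than the mean departed from 0.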
